A study of Mus musculus with 24 samples.

Results

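The conversion of mouse embryonic stem cells (ESCs) to expanded potential stem cells was examined here in the Sox2 tet-off line 2TS22C, with 4 RNA-seq libraries out of 24 in the series. They were defined by their labels, with 2 libraries from the line's ESCs. The other 2 came from its expanded potential stem cells in the medium of the Liu laboratory (L-EPSCs). No library had received doxycycline (Dox), and earlier results of these data were known when the libraries were chosen. The labels give the genotype as a Sox2 tet-off knock-in and describe the cells as a conditional knockout. In this line the endogenous Sox2 gene is lost and a Sox2 transgene stands in for it, which Dox switches off, so ESCs and L-EPSCs alike ran on the transgene. The series holds the same conversion in an Oct4 and in a Nanog tet-off line, which served here only to show where the Sox2 line differed. Poly(A) RNA was sequenced, and values are normalized counts, that is reads per gene divided by a size factor of each library.

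The L-EPSC medium held serum replacement at 20% and LIF at 1000 U/mL. It also held 6 inhibitors, CHIR99021 against GSK3 (3 µM), PD0325901 against MEK (1 µM), A-419259 against SRC family kinases (0.3 µM), XAV939 against tankyrase (5 µM), SB203580 against p38 (10 µM) and the JNK inhibitor VIII (4 µM). The medium of the tet-off ESCs was not stated, so which of these compounds the ESCs also received is not known. The study's methods have EPSCs kept off feeder cells for several passages before RNA was taken, and whether the tet-off ESCs grew on feeders was not stated. All libraries came from 1 cell line, and whether replicates were separate derivations was not stated.

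Mouse ESCs resemble the epiblast of the blastocyst and are held in a naive state by LIF and by blocking MEK and GSK3. Signaling from FGF through MEK and ERK moves them toward a formative state, from which they enter differentiation. Expanded potential stem cells are grown with further inhibitors and are studied for a wider developmental range, which includes extraembryonic lineages.

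The ESC libraries held 11889722 and 13850634 reads in genes and the L-EPSC libraries 11441990 and 12359189. The 10 most abundant genes took 5.32% and 5.37% of the reads of ESCs, against 6.13% and 6.11% of L-EPSCs. Replicates varied more than counting alone gives, with a median chi-square per gene of 1.56 times the expected value in ESCs and 1.68 times in L-EPSCs. At this depth a gene with at most 3 reads in each of the 4 libraries was taken as at the floor and given no fold change, which left 17760 of 24007 genes tested above it.

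Markers were read before the comparison. The 6 markers of pluripotent stem cells summed to 43925 and 43714 normalized counts in ESCs, against 33598 and 33063 in L-EPSCs, and none was near 0. Of 7 fibroblast markers, 6 were in the table and summed to 182.7 and 170.8 in ESCs against 71.3 and 72.8 in L-EPSCs, with Thy1 as the most abundant and 1 marker at 0 in all 4 libraries. The 5 macrophage markers summed to 392.7 and 358 in ESCs against 417 and 391 in L-EPSCs, nearly all of it from the lysosomal gene Cd68 (368 and 335 against 405 and 371). The 5 trophoblast markers, led by Krt7, summed to 965 and 933 against 386 and 402, the 5 primitive endoderm markers, led in L-EPSCs by Dab2, to 435 and 466 against 592 and 522, and the 3 neural markers in the table, led by Tubb3, to 399.8 and 423 against 399.7 and 340.2. In bulk libraries fewer cells of a type and less RNA per cell cannot be told apart, and the part of such cells in any result was not tested. Sox2 itself was at 5688 and 5497 in ESCs, 4966 and 4701 in L-EPSCs and 47.0 and 53.1 in the L-EPSCs of the line that received Dox, so both groups compared held Sox2 RNA at a high level.

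Sex-linked genes set the ESC libraries of this line apart, and their values are given ahead of the results. The 12 Y-linked genes listed summed to 37.4 and 38.1 normalized counts in the Sox2-line ESCs and to 782 and 848 in its L-EPSCs. In the Oct4 line the same sums were 620.1 and 638 in ESCs against 2429.6 and 2501 in L-EPSCs, and in the Nanog line 384 and 358 and then 2669 and 2676. Y-linked RNA was thus lowest in the Sox2-line ESCs among the groups named here. The translation factor gene Eif2s3y was at 18.2 and 17.3 in ESCs against 323 and 384 in L-EPSCs (log2 fold change 4.24 ± 0.08 SE, adjusted p = 1.87e-15), and the RNA helicase gene Ddx3y at 14.1 and 15.6 against 292 and 329. The histone demethylase gene Kdm5d gave no read in ESCs and 24.8 and 33.9 normalized counts in L-EPSCs, at least 10.4-fold higher. It was as low in the ESCs of the other lines (0 and 0 in the Oct4 line and 0 and 1.12 in the Nanog line). Of the 5 sex-linked identity genes 4 were called higher and 1 lower, with a median log2 fold change of 4.29, or 4.24 with Kdm5d at its bound. The lower one was Xist, the RNA that silences an X chromosome, at 237 and 227 in ESCs against 51.9 and 51.9 in L-EPSCs. Xist shares 1943 exon bases with Tsix on the opposite strand (195 and 146 against 33.5 and 53.9, a call lost in a fit of only the groups compared), and the strand setting of the counting was not stated, so reads of these transcripts cannot be told apart.

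The X-linked gene Hprt, a purine salvage enzyme, was at 78.7 and 86.7 in ESCs against 443 and 493 in L-EPSCs of the Sox2 line, compared with 1456 and 1469.7 and then 1527 and 1560.3 in the Oct4 line and 2068 and 2018 and then 1656 and 1627 in the Nanog line. Its level was thus far below that of the other lines in both groups, and lowest in the ESCs. Pdha1, the X-linked subunit of pyruvate dehydrogenase, showed the reverse order, with 9420.3 and 9134 in ESCs against 4267 and 4177 in L-EPSCs, compared with 3242 and 3112 in Oct4-line ESCs and 3228 and 3216 in Nanog-line ESCs. It shares 603 exon bases with Map3k15 on the opposite strand. Among 360 X-linked genes averaging 100 normalized counts or more the median log2 fold change was -0.29, and 30.3% were called lower and 8.89% higher by the test described next. Medians of the 19 autosomes ran from -0.03 on chromosome 17 to 0.17 on chromosome 8, and the X median was 0.09 in the Oct4 line and -0.10 in the Nanog line. Whether the cells sequenced as ESCs and as L-EPSCs had the same sex chromosomes was not tested, and such a difference cannot be told apart from the change of medium.

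**Figure D1:**
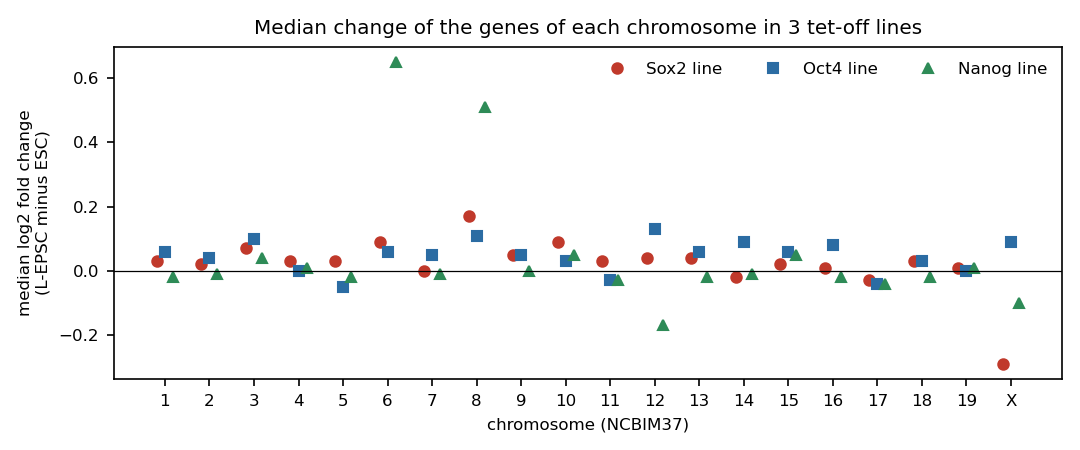
Median log2 fold change from ESC to L-EPSC (vertical axis) of the genes of each chromosome that average 100 normalized counts or more (horizontal axis, autosomes and X), in the Sox2 line (circles), the Oct4 line (squares) and the Nanog line (triangles). In the Sox2 line the X chromosome lies at -0.29 while its autosomes lie between -0.03 and 0.17.

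The comparison asked which genes differed between ESCs and L-EPSCs of the line. A gene was called when limma gave an adjusted p under 0.05 and the log2 fold change was beyond 0.6 in either direction, which held for 4713 of 24007 genes (19.6%). Of these 1918 (7.99% of the genes tested) were higher in L-EPSCs and 2795 (11.6%) lower, and 415 and 708 of them differed by more than 4-fold. The groups did not overlap for any called gene, so such separation, where it is described below, adds no evidence to a call. Among the 17760 genes above the floor 10.4% were called higher and 15.1% lower, and among 9915 genes with a mean of at least 100, 10.8% were called higher and 12.6% lower. The median log2 fold change was 0.00 over all genes tested, -0.05 above the floor and 0.03 at a mean of at least 100, and counts and medians of gene groups are read against these values. Within pairs of library values the ESC replicates come first and the L-EPSC replicates after the word against. With X- and Y-linked genes left out 4423 genes were called, 1810 higher and 2613 lower. With 2 libraries against 2 an exact permutation test cannot go below p = 0.333, so all p-values come from limma, which took the spread from all 18 libraries of the tet-off table, and they measure only the spread between these libraries.

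The largest falls among well measured genes came from varied functions. Enox1, a cell surface oxidoreductase gene, was at 230.2 and 222 in ESCs against 1.08 and 3.99 in L-EPSCs, where it was close to the floor. Trh, which encodes the precursor of thyrotropin-releasing hormone, went from 2923 and 2969.6 to 109 and 92.8 (log2 fold change -4.86 ± 0.14 SE, adjusted p = 3.84e-13). Tgm3, a transglutaminase gene, was at 418 and 424 in ESCs against 34.6 and 21.0 in L-EPSCs (-3.92 ± 0.50 SE, adjusted p = 8.87e-06). For all of these the L-EPSC libraries lay more than 10-fold below the ESC libraries. Dlg4, a scaffold of synapses, had 222 and 212 against 23.8 and 16.0, and Ina, a neurofilament gene that shares 456 exon bases with Nt5c2, had 269 and 321 against 28.1 and 29.9. The X-linked genes Dgkk, a diacylglycerol kinase (276 and 277 against 9.72 and 14.0), Kctd12b (318 and 312 against 15.1 and 17.0) and Fndc3c1 (328 and 313 against 21.6 and 28.9) also stood among the 10 largest falls, together with Spry4 and Igf2, which are described below.

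The largest rises among well measured genes were of mixed function. Crxos, a homeobox gene, was at 33.3 and 13.9 in ESCs against 796 and 748 in L-EPSCs (log2 fold change 5.10 ± 0.33 SE, adjusted p = 2.99e-09). Pramel6, of a family active in early embryos, was at 16.2 and 17.3 against 414 and 493 (4.67 ± 0.32 SE, adjusted p = 5.66e-09). The X-linked cancer-testis genes Magea8 (11.1 and 19.1 against 621 and 558) and Magea5 (19.2 and 13.0 against 393 and 400.1) were low in both ESC libraries and high in both L-EPSC libraries. Pramel and Magea genes have close copies in the genome, so reads assigned to a single member are uncertain. Vnn1, a pantetheinase gene, was at 10.1 and 9.54 in ESCs against 310.0 and 303 in L-EPSCs (4.83 ± 0.66 SE, adjusted p = 1.81e-05). The unnamed genes C130073F10Rik (9.09 and 8.67 against 429 and 439) and the X-linked 1700013H16Rik (25.2 and 23.4 against 494 and 487) were close to silent in ESCs. Dazl, Ddx3y and Eif2s3y made up the remainder of the 10 largest rises.

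**Figure D2:**
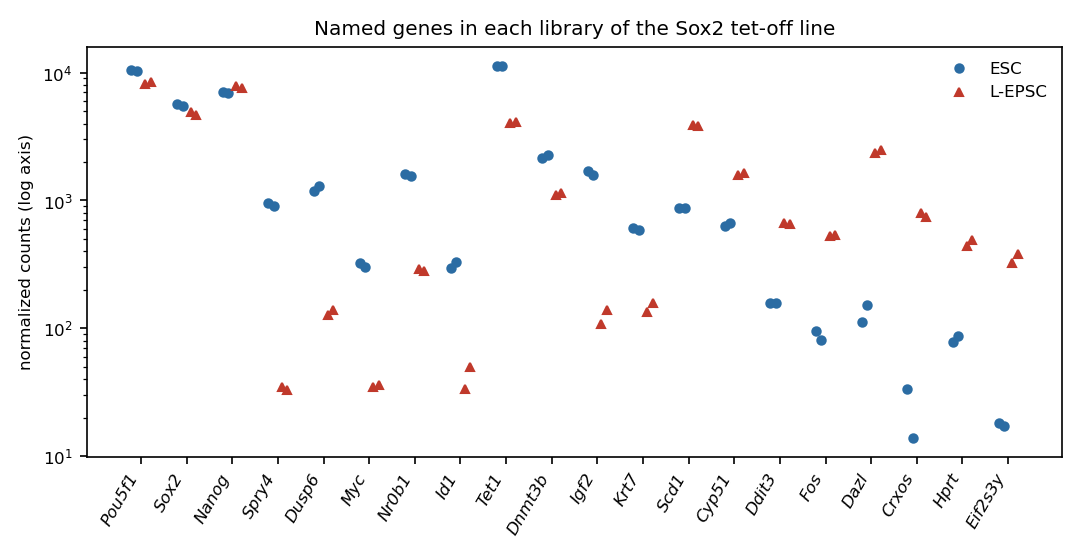
Normalized counts (vertical axis, logarithmic) of 20 named genes (horizontal axis) in each ESC library (circles) and each L-EPSC library (triangles) of the Sox2 line. Replicates lie close together, Pou5f1, Sox2 and Nanog sit near the same level in both groups, and Spry4 goes from 953 and 908 to 34.6 and 32.9.

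The core pluripotency factors stayed high in both groups. Pou5f1, which encodes Oct4, was at 10509.6 and 10293 in ESCs against 8221 and 8489.9 in L-EPSCs (log2 fold change -0.32 ± 0.05 SE, adjusted p = 6.9e-05). Sox2 had a log2 fold change of -0.21 ± 0.06 SE, adjusted p = 0.00605, and Nanog, at 7007 and 6882 in ESCs against 7883 and 7557 in L-EPSCs, one of 0.15 ± 0.04 SE, adjusted p = 0.00948. The libraries of the groups did not overlap for these 3 genes, yet all differences were below the fold threshold, so 0 of 3 were called, with a median of -0.21.

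Of 18 naive pluripotency genes 2 were called higher (11.1%, near the 10.8% of all genes with a mean of at least 100) and 5 lower (27.8% against 12.6%), with a median log2 fold change of -0.15. Nr0b1, an X-linked orphan receptor gene, was at 1613 and 1555 in ESCs against 291 and 281 in L-EPSCs (log2 fold change -2.47 ± 0.29 SE, adjusted p = 3.75e-06), and the homeobox gene Gbx2, a target of LIF signaling, at 289.7 and 318 against 62.7 and 44.9 (-2.49 ± 0.31 SE, adjusted p = 7.07e-06). Both fell several-fold with no overlap of the groups, Gbx2 sharing 1372 exon bases with a weakly read gene. Zfp42, long used as a naive marker, was lower by less, with 5811 and 5957 against 3099 and 3049 (-0.94 ± 0.05 SE, adjusted p = 6.74e-10), as were the zinc finger gene Sall4 (6533 and 6712 against 3859 and 3773) and the T-box gene Tbx3 (5021 and 5102 against 3327 and 3118). Esrrb, an orphan receptor of the naive network, had 8376 and 8372 in ESCs against 5570.0 and 5493 in L-EPSCs and missed the fold threshold at -0.60, which it passed at -0.61 without L-EPSC replicate 1. The higher genes were Fbxo15, an F-box gene of ESCs (1940.4 and 2082 against 4115 and 4082, log2 fold change 1.03 ± 0.04 SE, adjusted p = 1.53e-11), and the orphan receptor gene Nr5a2 (448 and 492 against 778 and 715, 0.67 ± 0.07 SE, adjusted p = 1.96e-06). Klf2 (0.12), Klf4 (-0.35), Tfcp2l1 (-0.27), Prdm14 (0.42) and Dppa5a (-0.03) were not called. Dppa3, which protects maternal methylation in the zygote, was at 398 and 414 in ESCs against 475 and 499.8 in L-EPSCs and was not called, while its log2 fold change was 4.10 in the Oct4 line and 2.54 in the Nanog line.

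Most genes of the formative and primed state were lower. Of 18 above the floor, 0 were called higher and 12 lower, with a median of -1.04, and 1 was at the floor. Lin28b, which blocks the let-7 microRNAs, was at 277 and 302 in ESCs against 63.7 and 38.9 in L-EPSCs (log2 fold change -2.51 ± 0.18 SE, adjusted p = 1.03e-08), and its relative Lin28a at 3492 and 3417 against 1513 and 1553 (-1.17 ± 0.05 SE, adjusted p = 5.84e-11). Both had L-EPSC values below the lower ESC library. Utf1, a chromatin gene of early epiblast, fell from 2772 and 2716 to 899.9 and 841 (-1.66 ± 0.06 SE, adjusted p = 4.6e-12), and Otx2, the homeobox gene that opens the formative program, from 888 and 829.7 to 463 and 454 (-0.90 ± 0.10 SE, adjusted p = 2.17e-06). Fgf5, the marker of formative epiblast, was already low in ESCs at 13.1 and 13.0 and gave no read in L-EPSCs, at least 4.19-fold lower. Tead2 (0.31) and the ephrin receptor gene Epha2 (-0.22) were not called.

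The study displays a selected set of pluripotency genes. The choice may have drawn on samples of the same series, so their direction is not taken as independent evidence. Of 28 genes so listed in its supplement 2 were called higher and 14 lower in the Sox2 line, with a median of -0.64. Besides those above, the lower genes included Myc, at 325 and 300.0 in ESCs against 34.6 and 35.9 in L-EPSCs (log2 fold change -3.11 ± 0.26 SE, adjusted p = 8.84e-08), and Dppa2, an activator of early embryonic genes, at 853 and 866 against 444 and 479.9 (-0.90 ± 0.09 SE, adjusted p = 5.47e-07). Both L-EPSC libraries held Myc far below either ESC library. A further list holds 49 of the genes that the study names for an RNA or a protein result, leaving out others it names, among them its core factors, and its direction is no independent evidence either. Of these 3 were called higher and 20 lower, with a median of -0.53, or -0.42 when groups at 0 are set to their bound. Among them Trim2, a ubiquitin ligase gene, was lower (1001 and 950.3 against 244 and 211, -2.10 ± 0.16 SE, adjusted p = 2.11e-08), as was the chromatin gene Arid5b (3200.3 and 3139 against 1246 and 1291, -1.32 ± 0.05 SE, adjusted p = 3.74e-12). The helicase gene Eif4a2 was higher (7955 and 7946 against 13606 and 13904, 0.79 ± 0.03 SE, adjusted p = 3.27e-12). The repressor gene Zfp281 (-0.53), its partner Zmym2 (0.12) and the hexokinase gene Hk2 (0.30) were not called. The acetyltransferase gene Kat6b was lower (4866 and 4897 against 2988 and 3069, -0.69 ± 0.04 SE, adjusted p = 7.85e-10). Of the mitochondrial genes named, Ndufs1 (-0.03), Ndufs3 (0.42), Ndufa9 (0.26), Sdhb (0.36), Vdac1 (0.48), Vdac3 (0.48) and Acad9 (0.17) were not called, nor were the lineage factors Tfap2c (0.07) and Eya1 (0.52).

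Most readouts of ERK signaling fell. The list of feedback inhibitors and immediate early genes had 17 members, 2 called higher and 11 lower, with a median of -1.30. Spry4, an inhibitor of receptor signaling that ERK itself induces, was at 953 and 908 in ESCs against 34.6 and 32.9 in L-EPSCs (log2 fold change -4.74 ± 0.24 SE, adjusted p = 1.82e-10). The ERK phosphatase gene Dusp6 was at 1190.3 and 1306 against 126 and 139.7 (-3.22 ± 0.36 SE, adjusted p = 2.06e-06), and Dusp4, another phosphatase of the family, at 654 and 727 against 131 and 129.7 (-2.40 ± 0.28 SE, adjusted p = 3.68e-06). In each case both L-EPSC libraries were far below both ESC libraries. Egr1, an immediate early factor, went from 417 and 440.4 to 75.6 and 52.9 (-2.74 ± 0.22 SE, adjusted p = 5.34e-08), Spry2 from 1089 and 1091 to 334 and 342, and the ETS factor gene Etv5 from 5645 and 5842 to 2290.2 and 2379 (-1.30 ± 0.04 SE, adjusted p = 2.34e-12). Fos, an immediate early gene whose product forms AP-1, went the other way, from 95.9 and 80.6 to 527 and 535 (2.58 ± 0.14 SE, adjusted p = 2.89e-10), and so did Ier3, from 162 and 164 to 306 and 330.2 (0.96 ± 0.15 SE, adjusted p = 7.76e-05). Dusp5 (-0.31), Spry1 (-0.38) and the cyclin gene Ccnd1 (-0.18) were not called.

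The AP-1 family and targets of the stress kinases p38 and JNK split in direction, with 4 of 12 called higher, 3 lower and a median of 0.24. The growth arrest gene Gadd45g was at 107 and 115 in ESCs against 441 and 446 in L-EPSCs (log2 fold change 1.99 ± 0.11 SE, adjusted p = 7.66e-10), and Gadd45b at 411 and 456 against 1274 and 1206 (1.52 ± 0.07 SE, adjusted p = 1.08e-10). Their relative Gadd45a was lower, with 977 and 1034 against 507 and 522 (-0.97 ± 0.10 SE, adjusted p = 1.03e-06). Within the family the groups were thus separated in opposite directions. Fosb was near the floor in ESCs at 4.04 and 9.54 and at 48.6 and 37.9 in L-EPSCs (2.59 ± 0.69 SE, adjusted p = 0.00704), and its call was lost without ESC replicate 1 (2.06) or L-EPSC replicate 1 (2.42), with a pseudocount of 0.1 (2.77) and in a fit of only the groups compared. Junb was lower (539 and 588 against 239 and 232, -1.25 ± 0.09 SE, adjusted p = 6.44e-09), while Jun, at 201 and 229 against 198 and 183, was not called (-0.17) and had log2 fold changes of 2.09 and 1.68 in the Oct4 and Nanog lines.

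Of 17 Wnt target genes above the floor 2 were called higher (11.8%, near the 10.4% of all genes above the floor). Another 4 were called lower (23.5% against 15.1%), and the median was -0.18. Lef1, a partner of beta-catenin on DNA, was at 63.6 and 66.8 in ESCs against 7.56 and 7.98 in L-EPSCs (log2 fold change -2.92 ± 0.36 SE, adjusted p = 6.63e-06), and the feedback inhibitor Axin2 at 143 and 144 against 73.5 and 64.8 (-1.05 ± 0.16 SE, adjusted p = 7.95e-05). Their L-EPSC values lay below those of both ESC libraries. The receptor gene Tnfrsf19 was higher (162 and 186 against 373 and 358, 1.07 ± 0.25 SE, adjusted p = 0.00256), as was the membrane inhibitor Apcdd1 (157 and 175 against 317 and 268, 0.81 ± 0.17 SE, adjusted p = 9.72e-04). Tcf7 (0.15) and Znrf3 (-0.26) were not called.

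Targets of SRC, YAP and SRF, which read out adhesion and actin, gave 1 of 15 higher and 4 lower, with a median of -0.09. The matricellular gene Ccn1, a YAP target, was at 247 and 279 in ESCs against 743 and 668 in L-EPSCs (log2 fold change 1.42 ± 0.13 SE, adjusted p = 2.7e-07). Filamin A, from the X-linked gene Flna, crosslinks actin and was lower in both L-EPSC libraries (19648 and 19954 against 9653 and 9469, -1.05 ± 0.03 SE, adjusted p = 7.32e-14), and the calponin gene Cnn2 was at 1337 and 1283 against 775 and 779 (-0.75 ± 0.07 SE, adjusted p = 2.94e-07). Ccn2 (0.45), Amotl2 (0.17), Tpm1 (0.06) and Srf (-0.09) were not called. The list's median was 0.60 in the Oct4 line and 0.22 in the Nanog line. Members of the LIF pathway gave 0 of 13 higher and 3 lower, with a median of -0.35. The receptor gene Lifr was at 1826 and 1702 against 1115 and 1068 (-0.69 ± 0.09 SE, adjusted p = 6.47e-06), whereas its partner Il6st (-0.17), the kinase gene Jak1 (0.32), the factor gene Stat3 (0.11) and its target Socs3 (-0.10) were not called.

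Called ligands and targets of the TGF-beta family were mostly lower. In the Nodal and Activin list 1 of 12 genes was called higher and 6 lower, with a median of -0.61. The ligand gene Nodal was at 535 and 565 in ESCs against 252 and 203 in L-EPSCs (log2 fold change -1.28 ± 0.10 SE, adjusted p = 2.71e-08), and Inhbb, a subunit of Activin B, at 157 and 160.4 against 36.7 and 33.9 (-2.14 ± 0.20 SE, adjusted p = 3.22e-07). The feedback inhibitor Lefty1 was at 304 and 284 against 81.0 and 63.8 (-2.01 ± 0.38 SE, adjusted p = 4.23e-04). No L-EPSC library reached the level of an ESC library for these genes. Smad7, an inhibitory SMAD, fell from 1557 and 1575 to 863 and 827 (-0.89 ± 0.05 SE, adjusted p = 4.21e-10), and Gdf3 from 469 and 486 to 215 and 243 (-1.06 ± 0.14 SE, adjusted p = 1.88e-05). The co-receptor gene Tdgf1 (-0.18) was not called.

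The BMP list gave 1 of 12 higher (8.33%, near the 10.4% of all genes above the floor). Another 5 were lower (41.7% against 15.1%), and the median was -0.46. Id genes, whose products block differentiation factors, are direct BMP targets. Id1 was at 296 and 330.3 in ESCs against 33.5 and 49.9 in L-EPSCs (log2 fold change -2.90 ± 0.16 SE, adjusted p = 3.6e-10), Id3 at 66.6 and 82.4 against 16.2 and 16.0 (-2.14 ± 0.21 SE, adjusted p = 5.02e-07), Id4 at 195 and 200.3 against 75.6 and 66.8, and Id2 at 385 and 379 against 158 and 139.7 (-1.36 ± 0.15 SE, adjusted p = 1.48e-06). All 4 Id genes were called lower. The ligand gene Bmp4 fell as well, from 332 and 344 to 77.8 and 75.8 (-2.12 ± 0.14 SE, adjusted p = 2.93e-09), while Bmp7 rose from 185 and 177 to 331 and 309 (0.82 ± 0.10 SE, adjusted p = 3.57e-06). The receptor gene Bmpr1a (0.17) and Smad6 (-0.44) were not called.

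Of 11 FGF ligand and receptor genes 1 was called higher (9.09%, near the 10.4% of all genes above the floor). Another 3 were called lower (27.3% against 15.1%), and the median was 0.23. Fgf4, the main FGF made by ESCs, was at 2729 and 2634 in ESCs against 3722 and 3566 in L-EPSCs and was not called at 0.44. Fgf17 was at 44.4 and 54.6 in ESCs and at the floor in L-EPSCs (2.16 and 2.99). Of the receptors, Fgfr3 was higher (52.5 and 48.6 against 111 and 98.8, log2 fold change 1.04 ± 0.24 SE, adjusted p = 0.00275), Fgfr2 lower (466 and 504 against 309 and 298, -0.67 ± 0.10 SE, adjusted p = 4.57e-05) and Fgfr1 not called (0.23). Fgfr2 shares 314 exon bases with Ctbp2 on the same strand. In the Oct4 and Nanog lines Fgfr2 had log2 fold changes of 0.63 and 2.02, and the log2 fold change of the Sox2 line minus that of each was -1.30 (adjusted p = 5.1e-06) and -2.69 (adjusted p = 1.27e-09).

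Genes of retinoic acid signaling gave 2 of 17 higher (11.8%, near the 10.4% of all genes above the floor). Another 5 were lower (29.4% against 15.1%). The median was -0.33, or -0.10 when groups at 0 are set to their bound. That shift came from a gene at 5.05 and 0 in ESCs and without reads in L-EPSCs, with no fall at its bound. Stra8, a retinoic acid target and meiotic gatekeeper, was at 140.3 and 176 in ESCs against 1185 and 1244 in L-EPSCs (log2 fold change 2.94 ± 0.09 SE, adjusted p = 5.26e-13). Dhrs3, which turns retinal back to retinol, was at 26.2 and 20.8 against 131 and 123 (2.39 ± 0.19 SE, adjusted p = 3.63e-08). Both were many times higher in L-EPSCs. Aldh1a2, which makes retinoic acid, was lower (67.6 and 65.0 against 18.4 and 20.0, -1.74 ± 0.30 SE, adjusted p = 2.07e-04). Of the receptors, Rarg was lower (1324 and 1267 against 833 and 836, -0.63 ± 0.08 SE, adjusted p = 3.99e-06), and Rara (-0.33) and Rxrb (-0.42) were not called.

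Several enzymes that add or remove DNA methylation fell, and those that maintain it were not called. In the list 0 of 12 genes were called higher and 7 lower, with a median of -0.78. The dioxygenase gene Tet1, which oxidizes methylcytosine, was at 11349.5 and 11303 in ESCs against 4035 and 4081 in L-EPSCs (log2 fold change -1.48 ± 0.05 SE, adjusted p = 3e-12), and Tet2 at 6221 and 6423 against 1892 and 1869.6 (-1.75 ± 0.04 SE, adjusted p = 2.07e-14). The methyltransferase gene Dnmt3b was at 2146 and 2281 against 1103 and 1148 (-0.97 ± 0.05 SE, adjusted p = 1.14e-10). For each of them the L-EPSC libraries lay at about the same level, well under both ESC libraries. Dnmt3a went from 2279 and 2244 to 1235 and 1175 (-0.91 ± 0.04 SE, adjusted p = 1e-10), and the cofactor gene Dnmt3l, which shares 67 exon bases with Aire, from 3735 and 3733 to 1504 and 1469 (-1.33 ± 0.05 SE, adjusted p = 4.5e-12). Zfp57, which keeps methylation at imprinted loci, fell from 4013 and 4085 to 1831 and 1736 (-1.18 ± 0.05 SE, adjusted p = 1.37e-11). The maintenance enzyme gene Dnmt1, at 7113 and 7332 against 7854 and 7832 (0.12), and its partner Uhrf1, at 7607 and 7412 against 8555 and 8317 (0.17), were not called.

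Polycomb genes gave 0 of 14 higher and 5 lower, with a median of -0.27. The PRC2 core subunits Ezh2 (0.07), Suz12 (0.07) and Eed (-0.44) were not called. The lower genes included the PRC2 accessory gene Epop at 2507 and 2581 in ESCs against 1332 and 1230.1 in L-EPSCs (log2 fold change -0.99 ± 0.04 SE, adjusted p = 2.64e-11), the PRC1 chromodomain gene Cbx7 at 3091 and 2993 against 1672 and 1742 (-0.83 ± 0.05 SE, adjusted p = 1.1e-09) and Jarid2, another PRC2 accessory gene, at 7599 and 7443 against 4774 and 4861 (-0.64 ± 0.03 SE, adjusted p = 2.83e-10). Their groups did not overlap.

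Germline and meiosis genes, many of them silenced by DNA methylation in somatic cells, gave 9 of 20 higher and 3 lower, with a median of 0.49. Dazl, an RNA-binding regulator of germ cells, was at 111 and 151 in ESCs against 2367 and 2463 in L-EPSCs (log2 fold change 4.21 ± 0.11 SE, adjusted p = 7.32e-14). Asz1, of the piRNA pathway, was at 7.07 and 10.4 against 119 and 102 (3.53 ± 0.31 SE, adjusted p = 1.25e-07), and Dpep3, a testis dipeptidase gene, at 7.07 and 6.07 against 74.5 and 111 (3.60 ± 0.35 SE, adjusted p = 3.9e-07). Each was low in both ESC libraries and many times higher in both L-EPSC libraries. Hormad1, of the meiotic chromosome axis, was at 112 and 77.2 against 335 and 333 (1.83 ± 0.16 SE, adjusted p = 9.79e-08), Slc25a31, an ADP/ATP carrier of sperm, at 17.2 and 19.1 against 95.1 and 114 (2.46 ± 0.20 SE, adjusted p = 6.34e-08), and Stk31 at 148 and 122 against 310.0 and 342 (1.27 ± 0.13 SE, adjusted p = 6.19e-07). The helicase gene Mov10l1 was at 109 and 153 against 267 and 255 (1.01 ± 0.12 SE, adjusted p = 3.8e-06), a call lost in a fit of only the groups compared. In the other direction Mael, also of the piRNA pathway, was lower (268 and 269.6 against 125 and 144, adjusted p = 6.12e-06), as was the synaptonemal complex gene Sycp3 (287 and 276 against 150.2 and 139, -0.96 ± 0.16 SE, adjusted p = 1.61e-04), which shares 660 exon bases with Chpt1. Ddx4 (0.07) and Tex19.1 (0.56, or 0.66 and called without ESC replicate 1) were not called.

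Promoters of germline genes are shown because many carry the E-box CACGTG, the letters bound by the repressor complex PRC1.6 through MGA and MAX. RefSeq promoters (build GRCm38.p6, 250 bases before to 50 after the start) were matched for 18 of the 20 germline genes, and CACGTG, which reads the same on both strands, was found in 12 of the 18, in 6 of the 9 called higher and in all 3 called lower, against 7.24% of 27025 promoters. The median number of CG pairs was 20 in these promoters and 7 in all promoters. Capitals mark the motif in the first 4 sequences, at chr3:40708621-40708920 (+), chr3:95559427-95559726 (+), chr6:49395289-49395588 (+) and chr15:88982744-88983043 (+). The promoters of Dazl at chr17:50293571-50293870 (-) and Asz1 at chr6:18109012-18109311 (-) hold no match in this window. A match is a description, not a site or a cause.
Slc25a31: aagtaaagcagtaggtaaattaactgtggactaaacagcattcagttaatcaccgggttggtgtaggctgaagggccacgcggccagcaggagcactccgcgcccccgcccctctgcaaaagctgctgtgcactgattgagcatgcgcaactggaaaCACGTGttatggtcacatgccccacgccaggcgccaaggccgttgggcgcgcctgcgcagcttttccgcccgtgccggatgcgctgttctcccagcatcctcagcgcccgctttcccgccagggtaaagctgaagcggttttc
Hormad1: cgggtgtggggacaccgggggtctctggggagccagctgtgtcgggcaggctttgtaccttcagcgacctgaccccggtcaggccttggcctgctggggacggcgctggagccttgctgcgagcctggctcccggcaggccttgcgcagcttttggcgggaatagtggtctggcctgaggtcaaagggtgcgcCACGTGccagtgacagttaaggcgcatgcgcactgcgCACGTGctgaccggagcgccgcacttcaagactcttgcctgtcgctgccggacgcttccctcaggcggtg
Stk31: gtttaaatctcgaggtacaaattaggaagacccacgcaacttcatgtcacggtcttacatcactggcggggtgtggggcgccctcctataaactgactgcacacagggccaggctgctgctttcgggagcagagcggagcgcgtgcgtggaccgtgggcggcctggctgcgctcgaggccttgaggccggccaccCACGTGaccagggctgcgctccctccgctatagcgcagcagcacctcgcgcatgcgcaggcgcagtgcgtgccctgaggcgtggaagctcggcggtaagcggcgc
Mov10l1: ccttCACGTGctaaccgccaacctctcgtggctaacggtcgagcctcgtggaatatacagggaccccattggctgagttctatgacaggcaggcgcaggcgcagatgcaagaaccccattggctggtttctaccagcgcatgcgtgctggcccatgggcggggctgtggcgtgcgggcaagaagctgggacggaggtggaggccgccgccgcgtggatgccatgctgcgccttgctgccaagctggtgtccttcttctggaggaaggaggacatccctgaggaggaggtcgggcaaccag
Dazl: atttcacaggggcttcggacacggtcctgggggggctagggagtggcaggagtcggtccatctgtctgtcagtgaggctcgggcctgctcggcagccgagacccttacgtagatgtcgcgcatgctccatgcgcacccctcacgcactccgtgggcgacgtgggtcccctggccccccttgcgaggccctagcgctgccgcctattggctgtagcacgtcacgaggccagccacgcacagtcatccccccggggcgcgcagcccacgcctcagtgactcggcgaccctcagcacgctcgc
Asz1: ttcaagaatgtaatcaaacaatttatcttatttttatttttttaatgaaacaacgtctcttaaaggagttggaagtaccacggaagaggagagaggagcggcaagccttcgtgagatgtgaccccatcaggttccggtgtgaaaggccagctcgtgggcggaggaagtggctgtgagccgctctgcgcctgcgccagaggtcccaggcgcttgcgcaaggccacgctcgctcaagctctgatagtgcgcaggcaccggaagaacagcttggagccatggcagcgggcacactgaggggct

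Imprinted genes, expressed from a single parental copy, gave 1 of 26 higher and 11 lower, with a median of -0.66, against 0.40 in the Oct4 line and -0.67 in the Nanog line. The growth factor gene Igf2 was at 1707 and 1590.1 in ESCs against 108 and 139.7 in L-EPSCs (log2 fold change -3.73 ± 0.09 SE, adjusted p = 2.07e-14), while its neighbor H19 was at 15034 and 15469 against 11794 and 11731 and was not called (-0.37). The neighbors thus parted, with Igf2 low in both L-EPSC libraries and H19 high in all 4. Peg10, a retrotransposon-derived placental gene and among the most abundant on the list, was at 33501 and 33246 against 9174 and 8929 (-1.88 ± 0.03 SE, adjusted p = 3.17e-17). Zdbf2 was at 2357 and 2320.2 against 466 and 507 (-2.27 ± 0.11 SE, adjusted p = 7.56e-11), and Peg3 at 5400.2 and 5604 against 2166 and 2177 (-1.34 ± 0.04 SE, adjusted p = 1.35e-12). Mest, which shares 904 exon bases with a gene on the opposite strand, was at 2317 and 2305 against 623 and 670.4 (-1.84 ± 0.13 SE, adjusted p = 1.01e-08). All of these fell in both L-EPSC libraries. The higher gene was Grb10, an inhibitor of insulin signaling (123 and 108 against 278 and 275, 1.25 ± 0.10 SE, adjusted p = 3.98e-08). Meg3 (-0.14), Rian (-0.11), Igf2r (0.17) and Plagl1 (0.11) were not called.

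Genes of the 2-cell embryo that the study displays, a list that is not independent evidence of direction, gave 1 of 14 higher and 8 lower, with a median of -1.07, and 2 at the floor. Zscan4 genes mark ESCs that pass through a 2-cell-like state. Zscan4c was at 111 and 93.6 in ESCs against 11.9 and 6.98 in L-EPSCs (log2 fold change -3.34 ± 0.28 SE, adjusted p = 8.84e-08), Zscan4d at 71.7 and 80.6 against 10.8 and 14.0 (-2.53 ± 0.26 SE, adjusted p = 7.21e-07) and Zscan4f at 53.5 and 66.8 against 6.48 and 7.98 (-2.89 ± 0.43 SE, adjusted p = 4.79e-05). The 3 copies are nearly identical and were low in both L-EPSC libraries, and how reads were shared among them is uncertain, as it is for the Usp17l copies on the list. The higher gene was Obox6, an oocyte homeobox gene, at 6.06 and 13.0 against 68.1 and 49.9 (2.58 ± 0.52 SE, adjusted p = 7.86e-04), a call lost in a fit of only the groups compared. The log2 fold change of Zscan4c was -3.04 in the Oct4 line, a difference of -0.30 (adjusted p = 0.686), and 1.19 in the Nanog line, a difference of -4.53 (adjusted p = 4.09e-07). The median of the list was 0.13 in the Oct4 line and 1.09 in the Nanog line.

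The trophoblast genes called were mostly lower in the Sox2 line. Of 17 genes 1 was called higher and 8 lower, with a median of -0.97, against 1.35 in the Oct4 line and 0.12 in the Nanog line. The keratin gene Krt7 was at 605 and 591 in ESCs against 134 and 157 in L-EPSCs (log2 fold change -2.04 ± 0.19 SE, adjusted p = 2.44e-07), Krt8 at 2715 and 2621 against 737 and 787 (-1.81 ± 0.07 SE, adjusted p = 4.36e-12) and Krt18 at 1861 and 1948 against 633 and 606 (-1.62 ± 0.06 SE, adjusted p = 3.34e-12). No L-EPSC library came near the ESC level of these keratins, and Krt8 and Krt18 have processed copies in the genome that make their reads less certain. The X-linked placental gene Plac1 fell from 153 and 146 to 59.4 and 57.9 (-1.34 ± 0.22 SE, adjusted p = 1.19e-04), and the homeobox gene Rhox6, also X-linked and with close copies, from 956 and 917 to 403 and 376 (-1.26 ± 0.09 SE, adjusted p = 5.64e-09). Hand1, a factor of giant cells, was lower as well (220.1 and 206 against 105 and 112, -0.97 ± 0.32 SE, adjusted p = 0.0264), but its call was lost on leaving out any single library (-0.93 and -1.02 without ESC replicates 1 and 2, -0.93 and -1.02 without L-EPSC replicates 1 and 2). The lineage factors Cdx2 (12.1 and 19.9 against 7.56 and 4.99), Elf5 (23.2 and 10.4 against 3.24 and 5.99) and Gata3 (105 and 105 against 136 and 123) were not called, though Cdx2 and Elf5 were called lower by limma restricted to genes with a mean of at least 10 (-1.21 and -1.61, adjusted p = 0.0454 and 0.0264), by edgeR (-1.34 and -1.77) and by DESeq2 (-1.37 and -1.83).

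Primitive endoderm genes split, with 5 of 16 called higher, 7 lower and a median of -0.49, or -0.12 when groups at 0 are set to their bound. That shift came from a lower call at 1.01 and 5.20 in ESCs and without reads in L-EPSCs, with no fall at its bound. The collagen gene Col4a1, a basement membrane component, was at 2199 and 2220.4 in ESCs against 7196 and 6995 in L-EPSCs (log2 fold change 1.68 ± 0.06 SE, adjusted p = 4.47e-12), and its partner Col4a2 at 1268 and 1221 against 3471 and 3321 (1.45 ± 0.08 SE, adjusted p = 4.55e-10). The laminin gene Lama1, of the same membrane, was lower (3663 and 3699 against 1953 and 1976, -0.91 ± 0.04 SE, adjusted p = 6.27e-11), as was Lamb1 (2932 and 3027 against 1746 and 1823, -0.74 ± 0.06 SE, adjusted p = 6.83e-08). Collagen and laminin genes were thus separated in opposite directions. The adaptor gene Dab2 was higher (94.9 and 116 against 281 and 234, 1.28 ± 0.19 SE, adjusted p = 3.62e-05), and so was the lineage factor Gata6 (94.9 and 119.6 against 218 and 191, 0.93 ± 0.16 SE, adjusted p = 1.61e-04), whose call was lost in the same kind of fit of only the groups compared. The receptor gene Pdgfra was lower (127 and 131 against 34.6 and 47.9, -1.64 ± 0.22 SE, adjusted p = 1.31e-05), and Sox17 was low throughout and not called (17.2 and 13.0 against 14.0 and 11.0).

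Genes of the primitive streak were scarce. In the primitive streak list 5 genes were at the floor, and of 9 above it 1 was called higher and 1 lower, with a median of 0.17. The organizer gene Gsc was the higher one, at 9.09 and 9.54 in ESCs against 64.8 and 91.8 in L-EPSCs (log2 fold change 2.92 ± 0.47 SE, adjusted p = 1.06e-04), while brachyury, from the gene T, stayed near the floor (4.04 and 11.3 against 2.16 and 5.99). Of 6 neural genes above the floor 2 were called higher and 1 lower, with a median of 0.02. Nes, an intermediate filament of progenitors, rose from 279 and 256 to 662 and 681 (1.33 ± 0.09 SE, adjusted p = 3.08e-09), and the microtubule gene Map2 fell from 127 and 125 to 62.7 and 75.8 (-0.86 ± 0.24 SE, adjusted p = 0.0103). The Map2 call was lost without ESC replicate 1 (-0.85), ESC replicate 2 (-0.87) or L-EPSC replicate 1 (-0.73). Pax6 stayed low (24.2 and 35.5 against 27.0 and 32.9) and shares 5542 exon bases with a more abundant gene on the opposite strand.

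Sox genes other than Sox2 gave 1 of 11 higher (9.09%, near the 10.4% of all genes above the floor). Another 5 were lower (45.5% against 15.1%), and the median was -0.41. Sox21, a direct Sox2 target in ESCs, was at 2184 and 2381 in ESCs against 579 and 582 in L-EPSCs (log2 fold change -1.97 ± 0.16 SE, adjusted p = 4.18e-08). It shares 713 exon bases with Gm4675 on the opposite strand. Its log2 fold change was -0.13 in the Oct4 line and 0.83 in the Nanog line, and both differences, taken as the Sox2 line minus the other line, passed the test (-1.84, adjusted p = 1.49e-05, and -2.81, adjusted p = 1.18e-07). Sox12 (705 and 678 against 338 and 322, -1.06 ± 0.08 SE, adjusted p = 2.55e-08) and Sox13 (796 and 841 against 423 and 465, -0.88 ± 0.11 SE, adjusted p = 4.53e-06) were lower too, and Sox9 was higher from a low base (11.1 and 15.6 against 33.5 and 30.9, 1.23 ± 0.34 SE, adjusted p = 0.00901), a call that was lost without ESC replicate 1 (1.00) and in a fit of only the groups compared.

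Adhesion genes were balanced, with 3 of 17 called higher, 3 lower and a median of -0.06. N-cadherin, from Cdh2, was at 107 and 108 in ESCs against 16.2 and 15.0 in L-EPSCs (log2 fold change -2.71 ± 0.34 SE, adjusted p = 7.53e-06), while E-cadherin, from Cdh1, was at 7280.0 and 7065 against 7358 and 7536 and not called (0.05). The epithelial gene Epcam was lower (1546 and 1483 against 838 and 793, -0.89 ± 0.05 SE, adjusted p = 3.55e-10) and fibronectin, from Fn1, higher (17785 and 17942 against 29559 and 29441, 0.72 ± 0.03 SE, adjusted p = 3.74e-11). The groups were apart for each of these, by little for Cdh1. The fibroblast list gave 1 of 10 higher and 4 lower, with a median of -0.80, Thy1 falling from 107 and 103 to 36.7 and 36.9 (-1.49 ± 0.29 SE, adjusted p = 6.13e-04) and the receptor gene Pdgfrb rising from 72.7 and 63.3 to 206 and 201 (1.57 ± 0.15 SE, adjusted p = 4.11e-07). Of 6 macrophage genes above the floor 2 were called higher and 1 lower, with a median of -0.57, or -0.71 with bounds. A higher call rested on no read in ESCs against 1.08 and 3.99 in L-EPSCs, with no rise at its bound. The other rested on 2.02 and 3.47 against 8.64 and 8.98. A further 4 were at the floor, and Laptm5, a lysosomal gene known from blood cells, fell from 1869 and 1879.7 to 668 and 682 (-1.47 ± 0.08 SE, adjusted p = 7.14e-10).

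Many genes of sterol and lipid synthesis rose. In the list 12 of 26 were called higher and 1 lower, with a median of 0.52. The desaturase gene Scd1, which makes oleate, was at 878 and 874 in ESCs against 3861 and 3810.0 in L-EPSCs (log2 fold change 2.13 ± 0.04 SE, adjusted p = 1.87e-15), and Scd2 at 3485 and 3524 against 9852 and 9849.7 (1.49 ± 0.03 SE, adjusted p = 1.87e-15). Cyp51, a demethylase of the sterol pathway, was at 636 and 664 against 1571 and 1649 (1.31 ± 0.07 SE, adjusted p = 1.73e-10). All of these were more than 2-fold higher in both L-EPSC libraries. The feedback gene Insig1 rose from 848 and 837 to 2047 and 2072 (1.29 ± 0.05 SE, adjusted p = 1.15e-11), Hsd17b7 from 126 and 171 to 396 and 398 (1.43 ± 0.14 SE, adjusted p = 6.46e-07) and Fdps from 1019 and 1011 to 2130.3 and 2174 (1.08 ± 0.06 SE, adjusted p = 5.55e-10). The regulator gene Srebf2 stayed under the fold threshold (0.42). The lower gene was Fasn, the fatty acid synthase, at 7029.6 and 7241 against 3442 and 3255 (-1.09 ± 0.04 SE, adjusted p = 3.74e-12), so desaturases and synthase went opposite ways.

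Targets of ATF4, the factor of the amino acid and unfolded protein responses, gave 11 of 20 higher and 0 lower, with a median of 0.70. Atf4 itself was at 1424 and 1369.9 in ESCs against 2486 and 2430.2 in L-EPSCs (log2 fold change 0.81 ± 0.05 SE, adjusted p = 7.17e-10). Ddit3, which encodes CHOP and shares 68 exon bases with Mars1, was at 157 and 158 against 663 and 650.5 (2.05 ± 0.08 SE, adjusted p = 4.48e-12), Chac1, which degrades glutathione, at 15.1 and 20.8 against 87.5 and 90.8 (2.26 ± 0.33 SE, adjusted p = 3.3e-05) and the stress gene Nupr1 at 50.5 and 50.3 against 201 and 189 (1.93 ± 0.18 SE, adjusted p = 1.96e-07). The L-EPSC libraries stood above both ESC libraries for all of them. Ddit4, an inhibitor of mTORC1, rose from 1165 and 1184 to 3202 and 3048 (1.41 ± 0.04 SE, adjusted p = 5e-13), the mitochondrial folate gene Mthfd2 from 498 and 499 to 1237 and 1151 (1.26 ± 0.05 SE, adjusted p = 1.64e-11), and Slc7a5, a transporter of large neutral amino acids, from 1883 and 1948 to 3515 and 3639 (0.90 ± 0.05 SE, adjusted p = 1.59e-10). The asparagine synthetase gene Asns, at 6251 and 6117 against 4872 and 4826, was not called (-0.35), nor were Phgdh (0.42) and Shmt2 (0.19).

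Chac1 and Nupr1 are shown as members of this list with the largest rises that hold the CARE motif TGATGNAA, the letters read by ATF4 with a C/EBP partner. On either strand the motif was found in 6 of 17 members with a RefSeq promoter (build GRCm38.p6), in 4 of the 10 of these called higher, and in 4.06% of all promoters. Capitals mark it, read here on the reverse strand, in the promoters at chr2:119350992-119351291 (+) and chr7:126625421-126625720 (-). The same reading applies, that a match is a description and no site.
Chac1: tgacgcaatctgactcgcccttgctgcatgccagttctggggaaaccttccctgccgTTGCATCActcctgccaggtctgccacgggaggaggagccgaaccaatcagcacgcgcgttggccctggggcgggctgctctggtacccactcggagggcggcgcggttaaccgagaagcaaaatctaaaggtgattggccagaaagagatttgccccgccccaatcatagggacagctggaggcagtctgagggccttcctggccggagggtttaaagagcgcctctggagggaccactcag
Nupr1: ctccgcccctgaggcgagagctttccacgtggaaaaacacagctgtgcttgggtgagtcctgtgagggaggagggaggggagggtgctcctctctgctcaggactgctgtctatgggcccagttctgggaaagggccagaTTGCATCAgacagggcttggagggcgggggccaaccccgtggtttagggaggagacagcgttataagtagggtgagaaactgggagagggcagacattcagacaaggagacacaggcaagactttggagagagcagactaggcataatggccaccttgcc

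Glycolysis genes gave 6 of 20 higher and 1 lower, with a median of 0.46. Gpi1, the glucose phosphate isomerase gene, was at 7058 and 7286 in ESCs against 18384 and 18525 in L-EPSCs (log2 fold change 1.36 ± 0.03 SE, adjusted p = 1.87e-15), and Ldhb, a subunit of lactate dehydrogenase, at 3867 and 3916 against 9793 and 9917 (1.34 ± 0.03 SE, adjusted p = 1.42e-14). The hexokinase gene Hk1 was at 2119 and 2194 against 4275 and 4393 (1.01 ± 0.04 SE, adjusted p = 1.78e-11). The L-EPSC libraries lay above both ESC libraries for all of these. Pfkp, which commits sugar to glycolysis and shares 372 exon bases with Pitrm1, rose from 3729 and 3589 to 6932 and 6836 (0.91 ± 0.03 SE, adjusted p = 3.14e-12), Aldoa from 22141 and 22039.7 to 39163 and 38139 (0.81 ± 0.02 SE, adjusted p = 2.6e-13) and Ldha from 10680.2 and 11309 to 18269 and 18104 (0.73 ± 0.03 SE, adjusted p = 1.85e-11). Pdk1, which shuts pyruvate out of the citrate cycle, was lower (2225 and 2252 against 1121 and 1199, -0.95 ± 0.05 SE, adjusted p = 1.57e-10). Gapdh (0.44), Pgk1 (0.46), Eno1 (-0.23) and Pkm (0.15) were not called.

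Citrate cycle genes gave 3 of 20 higher (15% against 10.4% of all genes above the floor). The X-linked Pdha1 was the 1 lower gene (5% against 15.1%), and the median was 0.37. Suclg2, of succinyl-CoA ligase, was at 899.5 and 875 in ESCs against 1980.2 and 1940.4 in L-EPSCs (log2 fold change 1.14 ± 0.05 SE, adjusted p = 4.81e-11), and the cytosolic dehydrogenase gene Idh1 at 1803 and 1829 against 3791 and 3875 (1.08 ± 0.04 SE, adjusted p = 1.42e-11). Both were higher without overlap, as was the succinate dehydrogenase gene Sdhd (801 and 829 against 1392 and 1449.6, 0.80 ± 0.07 SE, adjusted p = 6.28e-08). Cs (0.28), Ogdh (0.45) and Sdha (0.04) were not called. Genes of the mitochondrial genome gave 0 of 12 higher and 3 lower, with a median of -0.34, and rested on a pair of L-EPSC libraries that differed. The complex I gene mt-Nd5 was at 35969.8 and 35767 in ESCs against 29828 and 18268 in L-EPSCs, and without L-EPSC replicate 2 its log2 fold change went from -0.62 to -0.27 and was not called, a call that other scaling and other tests ended as well. The same library ended the calls of mt-Nd4 (14102 and 13804 against 10363 and 7809, -0.43 without it) and mt-Cytb (30489.9 and 30523 against 21404 and 18604, -0.51 without it), which edgeR ended too (-0.60 and -0.58). The call of mt-Nd4 was also lost in a fit of only the groups compared (-0.63, adjusted p = 0.118) and that of mt-Cytb under TMM scaling (-0.59). mt-Co1, the most abundant, was at 114325 and 114750.4 against 132435 and 127305 and not called (0.18).

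Cell cycle regulators gave 4 of 20 higher and 3 lower, with a median of 0.05. The inhibitor gene Cdkn1a, which encodes p21, was at 575 and 612 in ESCs against 1755 and 1809 in L-EPSCs (log2 fold change 1.58 ± 0.06 SE, adjusted p = 1.3e-11). Cdkn2b (57.5 and 45.1 against 118 and 116, 1.18 ± 0.26 SE, adjusted p = 0.00149) and Cdkn2c (49.5 and 32.1 against 95.1 and 94.8, 1.23 ± 0.29 SE, adjusted p = 0.00302) were higher too, the Cdkn2c call being lost without ESC replicate 2 (0.93) and in a fit of only the groups compared. The remaining higher gene was an inhibitor as well (216 and 200.3 against 327 and 326, 0.65 ± 0.14 SE, adjusted p = 0.00117). Further inhibitors on the list were not called (0.49 and -0.04). The cyclins and kinases that were called were lower. The cyclin gene Ccnd2 fell from 159.5 and 139.6 to 28.1 and 27.9 (-2.37 ± 0.27 SE, adjusted p = 2.57e-06), the kinase gene Cdk6 from 335 and 357 to 134 and 133 (-1.37 ± 0.25 SE, adjusted p = 2.83e-04) and Ccne1 from 1841 and 1845 to 1029.5 and 1009.6 (-0.85 ± 0.06 SE, adjusted p = 6.9e-09). Cdk1 (0.37) and the proliferation marker Mki67 (-0.38) were not called.

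The p53 list gave 3 of 15 higher and 1 lower, with a median of 0.36. Trp53, which encodes p53, was the lower one, at 4665 and 4776 in ESCs against 1987 and 1900.5 in L-EPSCs (log2 fold change -1.28 ± 0.04 SE, adjusted p = 1.88e-13). The higher ones were Cdkn1a, Sesn1, a stress gene that restrains mTORC1 (267 and 204 against 469.9 and 411, 0.91 ± 0.11 SE, adjusted p = 3.96e-06, a call lost in a fit of only the groups compared), and Phlda3 (501 and 501 against 822 and 738, 0.64 ± 0.07 SE, adjusted p = 1.5e-06, a call lost without L-EPSC replicate 1 at 0.56). The targets Mdm2 (0.58, or 0.61 and called without ESC replicate 2, under TMM scaling and with edgeR) and Ccng1 (0.40) were not called. Interferon-stimulated genes gave 1 of 17 higher and 7 lower, with a median of -0.37 and 5 at the floor. Ddx58, the RNA sensor RIG-I, was at 958 and 1012 against 96.1 and 123 (-3.17 ± 0.16 SE, adjusted p = 1.52e-10), and the antiviral membrane gene Ifitm1 at 2377 and 2429 against 776 and 808 (-1.60 ± 0.26 SE, adjusted p = 1.11e-04). Both were clearly lower in both L-EPSC libraries. Ifi27 gave no read in ESCs and 29.2 and 21.9 in L-EPSCs, at least 9.08-fold higher.

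**Figure D3:**
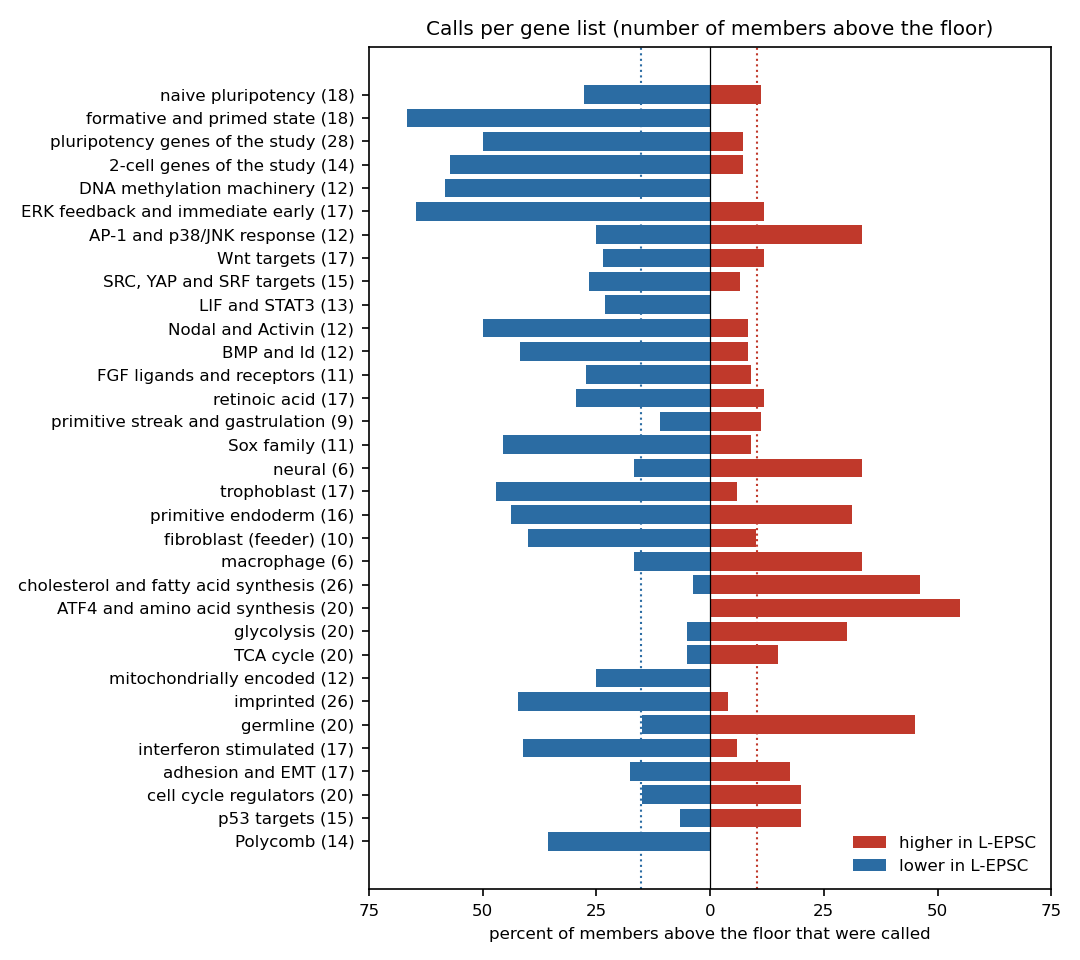
Share of the members above the floor (horizontal axis, percent) called higher (right) and lower (left) in L-EPSCs of the Sox2 line, for each gene list (vertical axis, number of members in brackets). Dotted lines mark the shares over all genes above the floor, 10.4% higher and 15.1% lower. The lists of formative genes and of ERK readouts reach far to the left, and those of ATF4 targets and of sterol and lipid synthesis far to the right.

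The same conversion in the Oct4 and Nanog lines used other libraries of the table. There 28.4% of genes were called in the Oct4 line (13.0% higher, 15.4% lower) and 26.9% in the Nanog line (12.2% higher, 14.7% lower), more than in the Sox2 line. Of the 1918 genes higher in the Sox2 line 1329 were also higher in the Oct4 line (69.3% of the Sox2-line calls, 42.6% of the Oct4-line calls) and 1012 in the Nanog line (52.8% and 34.6%). Of the 2795 lower genes 1697 were also lower in the Oct4 line (60.7% and 45.8%) and 1416 in the Nanog line (50.7% and 40.1%). In all 3 lines 883 genes were higher and 1127 lower. Calls in the opposite direction were few, 20 and 91 against the Oct4 line and 77 and 129 against the Nanog line.

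Where the Sox2 line differed was tested by the difference between conversions, the Sox2 line minus the other line, in the same limma fit. Against the Oct4 line 2403 genes (10.0%) differed, 4.09% of all genes toward higher and 5.91% toward lower in the Sox2 line, and against the Nanog line 3551 (14.8%), 6.70% and 8.09%. The Nanog line had raised medians on chromosome 6 (0.65, against 0.09 in the Sox2 line) and chromosome 8 (0.51 against 0.17), and 267 and 183 of the genes lower in the Sox2 line than in the Nanog line lay there. The Oct4-line medians there were 0.06 and 0.11, so the Nanog line stood apart from both other lines. Of genes tested on these chromosomes 25.6% and 20% differed from the Nanog line, against 8.17% and 10.9% from the Oct4 line. For a single gene there, a difference from the Nanog line alone cannot be told apart from that shift. Genes called in the conversion, and with the same sign in both differences, numbered 99 higher and 240 lower. With a mean of at least 100 they were 60 and 132, of which 2 and 25 were X-linked. Among all 9915 genes at that mean 360 were X-linked.

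Toward lower, the genes with the largest such differences from both lines included Selenop and the keratin gene Krt7. Krt7 fell in the Sox2 line, while in the Oct4 line it went from 98.3 and 95.7 to 337 and 332, a difference of -3.81 (adjusted p = 3.87e-08). Selenop, a plasma selenium carrier, was at 384 and 439.6 in ESCs against 81.0 and 89.8 in L-EPSCs of the Sox2 line (log2 fold change -2.25 ± 0.14 SE, adjusted p = 1.59e-09), and its change differed by -2.99 and -4.03 from the Oct4 and Nanog lines (adjusted p = 1.69e-08 and 4.62e-10). Slc16a9, a carrier of the monocarboxylate family, was at 309 and 283 against 129.6 and 90.8 (-1.44 ± 0.24 SE, adjusted p = 1.67e-04). In Sox2-line ESCs these genes, like Rhox6 (162 and 135 in Oct4-line and 11.5 and 10.1 in Nanog-line ESCs), stood above their level in the ESCs of the other lines. The placental gene Zfp36l3, X-linked, was at 275 and 245 against 102 and 86.8 (-1.46 ± 0.43 SE, adjusted p = 0.0138), and its call was lost on leaving out any single library of the line (-1.38 and -1.54 without ESC replicates 1 and 2, -1.57 and -1.35 without L-EPSC replicates 1 and 2). Catsperg1, of a sperm ion channel, was at 167 and 174 against 95.1 and 132 (-0.60 ± 0.18 SE, adjusted p = 0.0146), a call at the threshold that was lost without ESC replicate 1 (-0.63), ESC replicate 2 (-0.57) or L-EPSC replicate 1 (-0.37), under TMM scaling (-0.58), with edgeR (-0.56), with DESeq2 (-0.58) and in a fit of only the groups compared.

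On the higher side stood Hprt and the collagen receptor gene Ddr2, at 81.8 and 63.3 in ESCs against 336 and 380.1 in L-EPSCs (log2 fold change 2.30 ± 0.19 SE, adjusted p = 7.71e-08), with differences of 2.44 and 2.63 from the Oct4 and Nanog lines. The zinc finger gene Zfp951 was at 64.6 and 60.7 against 338 and 366 (2.47 ± 0.19 SE, adjusted p = 2.79e-08), and at 344 and 293 and then 282 and 339 in the Oct4 line. The zinc finger genes Zfp981 (311 and 249 against 789 and 787, 1.50 ± 0.09 SE, adjusted p = 2.25e-09), Zfp600 (194 and 225 against 421 and 419, 1.01 ± 0.10 SE, adjusted p = 4.06e-07) and Zfp978 (297 and 281 against 473 and 516, 0.77 ± 0.10 SE, adjusted p = 1.04e-05) lie in a cluster of close copies on chromosome 4. All 3 rose in the Sox2 line and had negative log2 fold changes in the other lines, -1.68 and -1.52 for Zfp978, and reads assigned to a single copy are uncertain.

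**Figure D4:**
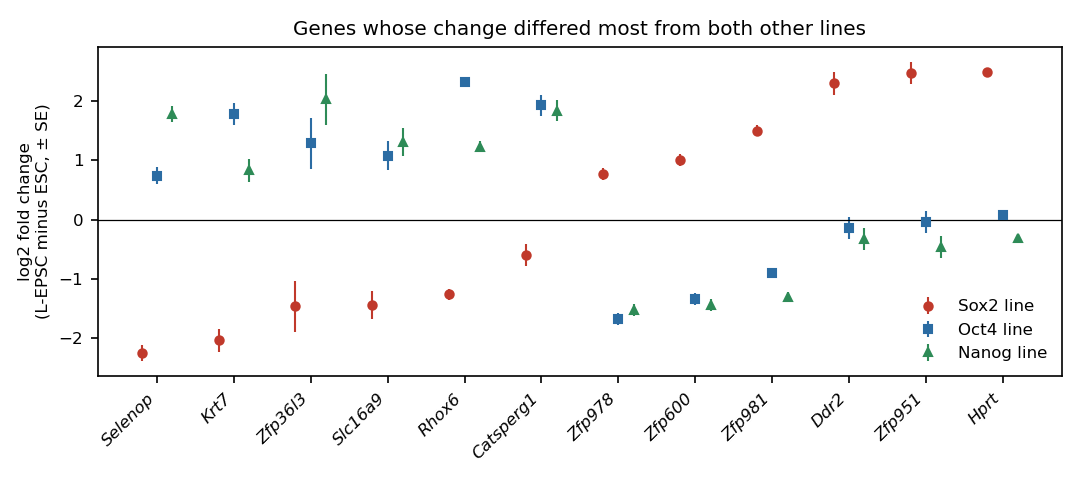
Log2 fold change from ESC to L-EPSC with its standard error (vertical axis) of the 12 genes whose change in the Sox2 line differed most from both other lines (horizontal axis), in the Sox2 line (circles), the Oct4 line (squares) and the Nanog line (triangles). Selenop lies at -2.25 in the Sox2 line and at 0.74 and 1.78 in the others, and Hprt at 2.49 against 0.08 and -0.32.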

How the data were processed

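RNA of ESCs and L-EPSCs was sequenced as Universal Plus mRNA libraries. The authors trimmed with Trim Galore 0.6.4, aligned with STAR 2.7.9a to mm9 (NCBIM37), counted with HTSeq 0.11.2 and divided by DESeq2 size factors (listed as version 4.1.1), and the deposited values are the resulting signal, normalized counts per gene. Whole reads were recovered from the value of 1 read in each library (100% whole within 0.1), also in Sox2-line ESC replicate 1 and L-EPSC replicate 2, where that value lies near 1. Genes with at most 1 read in all were left out, and log2(normalized count + 1) of all 18 libraries in 9 groups went into limma 3.58.1 (R 4.3.3, trend, Benjamini-Hochberg), which was tested on simulated data. The J1 table of the series was normalized separately and was not used.

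Named are Sox2, Pou5f1 and Nanog, up to 4 called genes per list and direction with a mean of at least 100, defining members taken with values known, the 10 largest changes and the 6 largest differences from both lines in each direction, and genes the study names. A further 9 genes are named only as overlapping another. Members whose call or sign turned under an alternative were counted and mostly not named. The 36 lists of 3 to 49 genes and the libraries were chosen with earlier results of these data known. A group at 0 was bounded with 3 reads per library. Where the other group lay under that bound, no direction is shown. Alternatives were edgeR 4.0.16 and DESeq2 1.42.0 on the recovered reads, TMM scaling, a pseudocount of 0.1, a mean of at least 10, a fold threshold of 1, only the groups compared, a replicate block, each library left out, and, chosen after seeing the data, leaving out X- and Y-linked genes. Promoters were read with Python 3.11.15.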

Additional observations from a re-analysis of the deposited data

Results flagged for a closer look

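The results below stand out because the conversion of the Sox2 line differed from the same conversion in another cell line, by an interaction test in limma. Against the Oct4 line 2403 genes differed and against the Nanog line 3551, of which 294 lay on chromosome 6 and 228 on chromosome 8, where the Nanog line itself had raised medians (0.65 and 0.51).

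Values are the log2 fold change of the Sox2 line minus that of the Oct4 and of the Nanog line, in that order. Toward lower, Krt7 differed by -3.81 and -2.87, the X-linked Rhox6 by -3.59 and -2.49, and Selenop by -2.99 and -4.03. Zfp36l3, X-linked as well, differed by -2.75 and -3.49, Slc16a9 by -2.51 and -2.74, and Catsperg1 by -2.53 and -2.45. In the opposite direction Hprt differed by 2.41 and 2.80, Zfp951 by 2.51 and 2.93, and Ddr2 by 2.44 and 2.63. The clustered zinc finger genes gave 2.34 and 2.45 for Zfp600, 2.46 and 2.29 for Zfp978, and 2.39 and 2.81 for Zfp981. The low Y-linked and Hprt values of the Sox2-line ESCs stand beside these differences, and their part in them was not tested.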

How the results depend on the processing

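The number of genes called in the conversion was 4713 and lay between 3511 and 4744 under other scaling, a mean filter, pseudocount, tests and sample choices. That of genes differing from the Oct4 line lay between 2303 and 2657, and from the Nanog line between 3169 and 3627. With X- and Y-linked genes left out the 3 counts were 4423, 2225 and 3397, of 22873 genes tested. A fold threshold of 1 on the log2 scale left 2990, 1286 and 2199 genes, fewer by construction. Leaving out each library in turn gave 4124 to 4199, 2147 to 2210 and 3201 to 3253 calls, with the lone library of a group assumed to vary like the other groups. Replicate numbers are shared between groups, but the labels do not say that they pair. With the replicate number as a block the counts were 4726, 2355 and 3520, and deviations of same-numbered replicates had r = -0.014 across 10030 genes, which are not independent replicates.

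Of 2979 log2 fold changes of named genes under 11 alternatives, 2918 kept sign and call. Members whose call or sign turned were mostly not named, so this count was partly set by the naming. It does not describe how stable all calls were. In 45 cases a call was lost, in 16 genes, and in 11 a call was gained. In a fit of only the groups compared the calls lost included Gata6 (0.93, adjusted p = 0.0563) and Mov10l1 (1.01, adjusted p = 0.0744). Values that turned sign belonged to genes without a call. Leaving out a library moved Ddx4 between -0.22 and 0.36 (-0.06 without ESC replicate 2) and Pax6 between -0.25 and 0.29 (-0.12 without L-EPSC replicate 2, and -0.00 with DESeq2).

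With 2 libraries a group and 1 line, p-values do not cover a new derivation. Medium, passage and sex-linked differences cannot be told apart from the conversion. Genes near the floor were measured with few reads, and a gene without reads in a group is bounded, not shown absent. Reads of overlapping or nearly identical genes are not assigned with certainty.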
